A study of Homo sapiens with 16 samples.

Results

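The 10 genes described here encode parts of the Notch signaling pathway. They are 3 receptors (NOTCH1, NOTCH2 and NOTCH3), 2 ligands (JAG1 and JAG2), 3 modifiers (POFUT1, NEURL1B and MIB1) and 2 transcriptional targets (HES1 and HEY1). They were chosen by name out of 18332 genes in the deposited table, with earlier results on glucose in these libraries known. Their values are therefore a description and are given without a p-value. Where a member is said to be past the threshold, an adjusted p under 0.05 over all genes, that is no independent test. All 10 had a row, and all 10 passed the filter on low values in both lines (0.5 CPM, that is reads scaled to the library's total, in at least 2 samples).

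RNA was sequenced from MDA-MB-231 and from MDA-MB-468, a pair of established cell lines of human breast cancer that the labels call estrogen receptor negative. For 48 hours each line was grown with glucose at either 5 mM, the low glucose control, or 25 mM, the high glucose that models hyperglycemia. There were 4 replicates in each of the 4 groups and 16 libraries in all. The labels name no engineered allele and, apart from glucose, no agent. The labels do not say whether the osmolarity of the low glucose medium was matched, and the part of osmolarity in these values was not tested.

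Notch receptors sit in the cell membrane and are activated by ligands of the DSL family (Delta, Serrate and Lag-2, which includes the Jagged proteins) on a neighboring cell. Ligand binding leads to cleavage of the receptor by an ADAM protease and then by gamma-secretase, and the released intracellular part enters the nucleus, where it joins the DNA-binding protein RBPJ and switches on genes such as those of the HES and HEY families. Sugars added to the extracellular repeats of the receptor shape its response to ligands, and ubiquitin ligases of the Mind bomb and Neuralized families act on the ligands. In breast epithelium the pathway is known for its part in cell fate, and in breast cancer for its activity in estrogen receptor negative tumors.

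Promoter sequences are shown for HES1, the member whose promoter holds the RBPJ core motif, and for HES4, a related target outside the 10. They are also shown for POFUT1 and NEURL1B, the members with the largest glucose differences. Each spans 250 bases before to 50 bases after the RefSeq gene start, 5′ to 3′ on the gene's strand, on GRCh38.p14. The positions are chr3:194135898-194136197 on the plus strand for HES1, chr1:1000048-1000347 on the minus strand for HES4, chr20:32207630-32207929 on the plus strand for POFUT1 and chr5:172641013-172641312 on the plus strand for NEURL1B. Capitals mark the RBPJ core, TGGGAA, which was searched on both strands.
HES1: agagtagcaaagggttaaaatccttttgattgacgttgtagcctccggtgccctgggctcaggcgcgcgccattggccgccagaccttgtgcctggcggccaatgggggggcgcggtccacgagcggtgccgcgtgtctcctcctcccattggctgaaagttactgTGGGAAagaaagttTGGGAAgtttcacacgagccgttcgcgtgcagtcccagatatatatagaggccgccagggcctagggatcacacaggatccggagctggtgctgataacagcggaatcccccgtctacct
HES4: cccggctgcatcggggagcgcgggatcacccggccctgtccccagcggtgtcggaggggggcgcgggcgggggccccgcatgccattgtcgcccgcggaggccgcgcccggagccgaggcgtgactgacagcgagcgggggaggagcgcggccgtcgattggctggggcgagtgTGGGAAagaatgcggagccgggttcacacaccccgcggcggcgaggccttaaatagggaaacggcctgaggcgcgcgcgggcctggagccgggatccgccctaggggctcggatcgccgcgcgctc
POFUT1: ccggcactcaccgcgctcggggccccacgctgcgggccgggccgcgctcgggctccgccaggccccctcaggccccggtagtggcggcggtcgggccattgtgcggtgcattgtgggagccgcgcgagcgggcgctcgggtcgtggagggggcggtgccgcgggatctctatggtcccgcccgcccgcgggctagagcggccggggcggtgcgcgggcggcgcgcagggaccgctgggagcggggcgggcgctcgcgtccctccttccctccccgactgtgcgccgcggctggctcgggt
NEURL1B: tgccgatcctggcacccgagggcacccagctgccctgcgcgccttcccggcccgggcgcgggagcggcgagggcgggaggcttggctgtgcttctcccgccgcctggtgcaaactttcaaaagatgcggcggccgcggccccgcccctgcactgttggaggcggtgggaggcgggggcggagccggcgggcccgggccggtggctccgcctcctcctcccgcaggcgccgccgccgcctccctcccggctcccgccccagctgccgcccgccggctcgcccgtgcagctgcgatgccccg
In HES1 the core stood 84 and 70 bases before the start, both on the gene's strand, and in HES4 it stood 76 bases before the start. A promoter entry was found for 9 members, all except HEY1, and 1 of the 9 held the core. It was also in 4 of the 8 promoters of the other HES, HEY and NRARP genes. Of 35116 RefSeq promoters of this length, 24% held the core, so a match is common. The E box CACGTG, a palindrome and so the same on both strands, was in 0 of the 9 member promoters and in 7.26% of all. Neither motif was found in the POFUT1 and NEURL1B windows.

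The 16 libraries held between 14094597 and 24425916 reads, so a floor of 3 reads lay between 0.123 and 0.213 CPM. Marker genes set the lines apart, with VIM (vimentin, a mesenchymal filament) at 96228 ± 2742 normalized read counts in low glucose MDA-MB-231 and 21.5 ± 5.48 in low glucose MDA-MB-468, and EPCAM, an epithelial adhesion gene, at 215 ± 15.1 and 5428 ± 146 (SD, n = 4). ESR1, the gene of the estrogen receptor, was at 1.31 ± 1.01 in low glucose MDA-MB-231 and at 57.9 ± 7.87 in low glucose MDA-MB-468. PTPRC, a marker of blood cells, averaged at most 12.5 in any group. Values below are normalized read counts, that is reads per gene divided by a size factor for the library. Levels are set between genes only as TPM, which scales reads by transcript length and library total, and the word difference refers to high minus low glucose on the scale of log2(value + 1), with its standard error (SE) from limma. Fewer transcripts per cell and fewer cells with the transcript cannot be told apart in these bulk samples.

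The lines expressed different receptors and ligands. In low glucose MDA-MB-231 the 4 Notch receptor genes summed to 103 ± 3.11 TPM, of which NOTCH2 made up 77.7% ± 0.864, NOTCH1 21.7% ± 0.830 and NOTCH3 0.367% ± 0.0880. In low glucose MDA-MB-468 the sum was 202 ± 9.23 TPM, with NOTCH3 at 65.3% ± 1.01, NOTCH2 at 28.7% ± 0.904 and NOTCH1 at 5.77% ± 0.223. The 5 DSL ligand genes summed to 139 ± 1.84 TPM in low glucose MDA-MB-231, where JAG1 made up 97.8% ± 0.470, and to 23.0 ± 1.64 TPM in low glucose MDA-MB-468, where JAG1 made up 61.2% ± 4.42 and JAG2 19.1% ± 1.72 (SD, n = 4). In low glucose, MDA-MB-231 thus had the higher summed ligand level and MDA-MB-468 the higher summed receptor level. Of the member receptors and ligands, only NOTCH3 and JAG1 followed these sums. NOTCH1 and NOTCH2 stood at 0.495 and 0.686 times their MDA-MB-231 values in MDA-MB-468, and JAG2 was 3.37-fold higher there. The low glucose libraries of the lines did not overlap for any of the 10 members. The share of all genes without such overlap was not computed, so nothing is read from this.

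**Figure D1:**
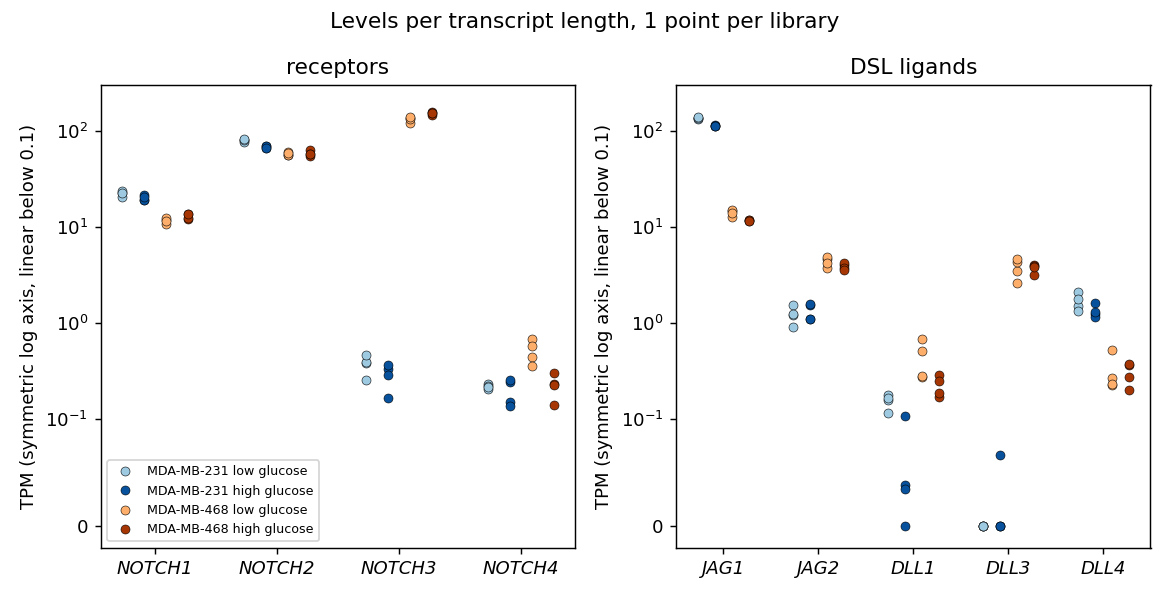
TPM of the 4 Notch receptor genes (left) and the 5 DSL ligand genes (right), with 1 point per library and 4 libraries per group. The axis is a symmetric log axis, linear below 0.1 TPM. NOTCH3 sits above 100 TPM in every MDA-MB-468 library and under 1 TPM in every MDA-MB-231 library, and JAG1 is the most abundant ligand in all 4 groups.

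By level, low glucose MDA-MB-231 ranked JAG1 (136 ± 2.36 TPM), NOTCH2 (79.9 ± 1.99), POFUT1 (74.7 ± 1.67), MIB1 (31.1 ± 2.30), NOTCH1 (22.3 ± 1.40), HES1 (17.0 ± 1.65), NEURL1B (4.74 ± 0.240), HEY1 (2.55 ± 0.775), JAG2 (1.23 ± 0.264) and NOTCH3 (0.377 ± 0.0891), with no overlap between the libraries of neighbors in this order. Low glucose MDA-MB-468 ranked NOTCH3 (132 ± 7.39 TPM), NOTCH2 (57.9 ± 2.14), HES1 (54.3 ± 2.74), MIB1 (29.8 ± 1.05), POFUT1 (15.2 ± 0.912), JAG1 (14.04 ± 1.02), NOTCH1 (11.6 ± 0.729), NEURL1B (7.14 ± 0.358), JAG2 (4.40 ± 0.483) and HEY1 (4.29 ± 0.381). There, 3 neighboring pairs overlapped, NOTCH2 with HES1, POFUT1 with JAG1, and JAG2 with HEY1. In high glucose MDA-MB-468, POFUT1 stood ahead of MIB1 at 31.5 ± 1.65 TPM and overlapped with neither neighbor, and NOTCH2 and HES1 again overlapped. In high glucose MDA-MB-231, POFUT1 and NOTCH2 overlapped. NEURL1B in high glucose overlapped with NOTCH1 in MDA-MB-468 (13.1 ± 0.925 and 12.96 ± 0.813 TPM) and with HEY1 in MDA-MB-231 (2.71 ± 0.257 and 2.73 ± 0.435 TPM).

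Between the lines in low glucose, 5 of the 10 members were higher in MDA-MB-468 and 5 lower, each past an adjusted p of 0.05 in the fit over all genes. Of all 17115 genes tested there, 45.0% were higher and 40.4% lower by the same rule, so nothing is read from the members' count. NOTCH3 was 331-fold higher in MDA-MB-468, a log2 difference of 8.34 (SE 0.18). JAG1 stood at 0.0979 times its MDA-MB-231 value (log2 difference -3.35, SE 0.04) and POFUT1 at 0.193 times (-2.37, SE 0.04). HES1 was 3.02-fold and JAG2 3.37-fold higher in MDA-MB-468. MIB1 was the member nearest to equal, at 0.908 times its MDA-MB-231 value (-0.14, SE 0.04), and its direction turned under quantile scaling (0.01) and under a correction for transcript length (0.12).

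The glucose comparison in each line asked which Notch genes high glucose altered. In MDA-MB-231, 4 of the 10 members were past the threshold and all 4 were lower in high glucose (NOTCH1, NOTCH2, JAG1 and NEURL1B), while 0 were higher. Over all 14884 genes tested in that line, 9.37% were lower and 5.71% higher. The median difference was -0.18 over the members and 0.00 over all genes. The libraries of the 2 glucose groups did not overlap for 4 members (NOTCH2, JAG1, POFUT1 and NEURL1B), against 18.7% of all genes.

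In MDA-MB-468, 6 members were past the threshold and higher in high glucose (NOTCH1, NOTCH3, POFUT1, NEURL1B, HES1 and HEY1) and 2 were lower (JAG1 and MIB1). Over the 15757 genes tested there, 24.9% were higher and 22.7% lower. The median difference was 0.19 over the members and 0.00 over all genes, and the glucose groups did not overlap for 7 members, against 42.5% of all genes. The 10 were picked with these comparisons known, so nothing about the pathway is read from these counts.

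**Figure D2:**
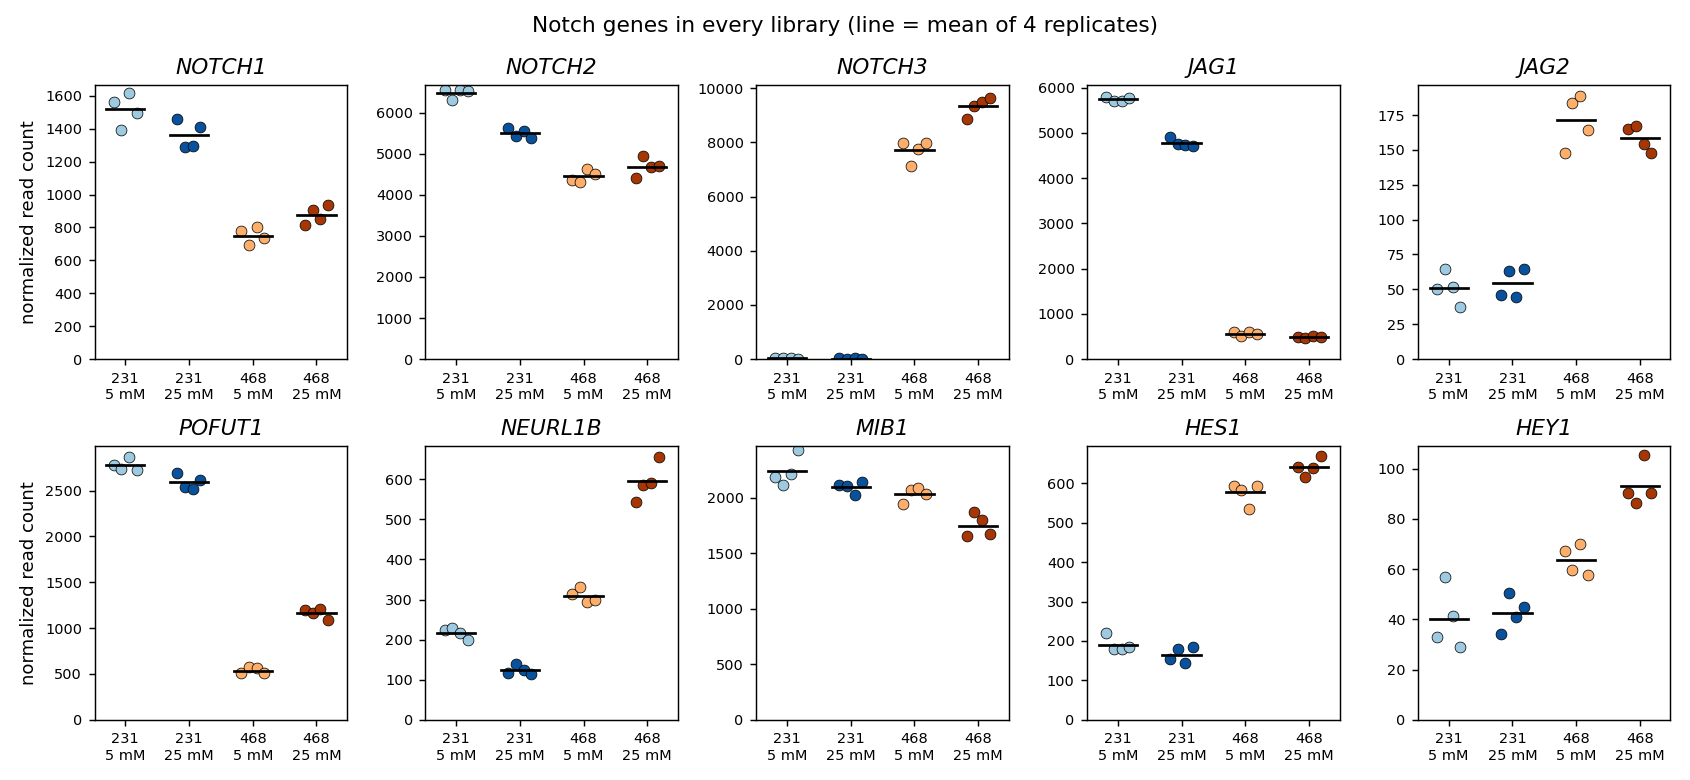
Normalized read count of each of the 10 Notch genes in every library, by line and glucose concentration, with a horizontal line at the mean of 4 replicates and each vertical axis starting at 0. High glucose NEURL1B is the lower in MDA-MB-231 and the higher in MDA-MB-468, and the 4 high glucose MDA-MB-468 libraries of POFUT1 lie between 1092 and 1212, above all 4 low glucose ones.

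NOTCH1 (ENSG00000148400, chr9:139388885-139440500 on GRCh37, minus strand, 34 exons) encodes a receptor expressed in many tissues. Its 4 MDA-MB-231 replicates read 1563, 1395, 1620 and 1495 in low glucose and 1460, 1288, 1296 and 1411 in high glucose, so the groups overlapped. The difference was -0.15 (SE 0.05), barely past the threshold, and it was lost in 14 of 20 alternative settings. Of these, 5 left out a single library (low glucose replicates 1 and 3 and high glucose replicates 2, 3 and 4), with differences from -0.17 to -0.12. The length correction, which also ended the call, moved the difference most, to -0.09. In MDA-MB-468 the replicates read 778, 691, 800 and 735 in low glucose and 817, 907, 854 and 934 in high glucose. All 4 high glucose libraries lay above the low glucose ones there, and the difference was 0.23 (SE 0.05). An annotated antisense RNA overlaps NOTCH1, but its row averaged 0.264 normalized read counts.

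NOTCH2 (ENSG00000134250, chr1:120454176-120643366 on GRCh37, minus strand, 34 exons) encodes the receptor that dominated in MDA-MB-231. Its replicates read 6569, 6321, 6552 and 6546 in low glucose and 5637, 5445, 5568 and 5395 in high glucose in that line. Every high glucose library was lower than every low glucose one, with a difference of -0.24 (SE 0.03). In MDA-MB-468 they read 4375, 4312, 4641 and 4513 in low glucose and 4417, 4956, 4674 and 4700 in high glucose, and these groups overlapped. The difference of 0.07 (SE 0.04) was not past the threshold, though it was 0.18 and past it after the length correction, and 0.10 and past it without high glucose replicate 1. NOTCH2 shares its first exons with the near-identical NOTCH2NL genes, none of which had a row under that symbol, so its reads are uncertain by as much as these copies contribute.

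NOTCH3 (ENSG00000074181, chr19:15269849-15311806 on GRCh37, minus strand, 33 exons) encodes a receptor best known from vascular smooth muscle. As the leading receptor of MDA-MB-468 it read 7977, 7115, 7766 and 7976 in low glucose and 8870, 9344, 9504 and 9640 in high glucose there. The groups did not overlap and the difference was 0.28 (SE 0.04). The MDA-MB-231 libraries read only 24.3, 24.5, 29.1 and 15.4 in low glucose and 20.4, 17.9, 22.3 and 10.5 in high glucose. Those groups overlapped, and the difference of -0.39 (SE 0.28) was not past the threshold. NOTCH3 made up 68.1% ± 0.762 of the receptor TPM in high glucose MDA-MB-468, against 65.3% in low glucose, and NOTCH2 made up 26.0% ± 0.713, against 28.7%.

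JAG1 (ENSG00000101384, chr20:10618332-10654647 on GRCh37, minus strand, 26 exons) encodes the main Notch ligand of both lines. It read 5795, 5706, 5710 and 5777 in low glucose and 4900, 4751, 4740 and 4713 in high glucose MDA-MB-231. All high glucose libraries were lower, by 0.27 on the log2 scale (SE 0.03), and the summed DSL ligand level was 139 ± 1.84 TPM in low and 116 ± 1.96 TPM in high glucose. The MDA-MB-468 replicates read 587, 508, 601 and 555 in low glucose and 494, 474, 509 and 493 in high glucose. Here the groups overlapped slightly, through 1 low glucose library, and the difference was -0.19 (SE 0.06). It was -0.14 and no longer past the threshold after the length correction.

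JAG2 (ENSG00000184916, chr14:105607319-105635161 on GRCh37, minus strand, 26 exons) encodes the other Jagged ligand. Its MDA-MB-231 replicates read 50.02, 64.6, 51.4 and 37.01 in low glucose and 45.7, 63.1, 44.6 and 64.7 in high glucose. Its MDA-MB-468 replicates read 148, 184, 189 and 164 in low glucose and 165, 167, 155 and 148 in high glucose. The glucose groups overlapped in both lines, with differences of 0.11 (SE 0.18) and -0.10 (SE 0.09), neither past the threshold. The sign in MDA-MB-231 turned when low glucose replicate 4 was left out. An annotated RNA that overlaps JAG2 on the same strand averaged 1.16 normalized read counts.

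POFUT1 (ENSG00000101346, chr20:30795658-30826461 on GRCh37, plus strand, 7 exons) encodes the enzyme that attaches O-fucose to the extracellular repeats of Notch receptors. It had the largest difference among the members in MDA-MB-468. There it read 510, 571, 562 and 507 in low glucose and 1197, 1162, 1212 and 1092 in high glucose, a ratio of means of 2.17 and a difference of 1.12 (SE 0.05). The MDA-MB-231 replicates read 2782, 2731, 2871 and 2726 in low glucose and 2694, 2539, 2520 and 2610 in high glucose. All 4 high glucose libraries were lower, but the difference of -0.10 (SE 0.03) fell just short of the threshold and passed it in 3 of 20 alternatives, among them without low glucose replicate 4 (-0.11) and without high glucose replicate 1 (-0.12). Even in high glucose the MDA-MB-468 level (31.5 ± 1.65 TPM) stayed under that of MDA-MB-231 (69.8 ± 1.99 TPM).

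NEURL1B (ENSG00000214357, chr5:172068266-172118543 on GRCh37, plus strand, 5 exons) encodes a ubiquitin ligase of the Neuralized family, which acts on Notch ligands. In MDA-MB-231 it read 223, 230, 217 and 198 in low glucose and 118, 140, 124 and 113 in high glucose. The groups were clearly apart, with a ratio of means of 0.569 and a difference of -0.81 (SE 0.09). The MDA-MB-468 replicates read 315, 331, 294 and 298 in low glucose and 543, 587, 592 and 657 in high glucose. These groups were apart in the opposite direction, with a ratio of means of 1.92 and a difference of 0.94 (SE 0.06). An annotated antisense RNA inside the gene averaged 4.12 normalized read counts, and reads of the pair cannot be split where counting ignored strand.

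MIB1 (ENSG00000101752, chr18:19284918-19450914 on GRCh37, plus strand, 21 exons) encodes Mind bomb 1, the ubiquitin ligase that promotes endocytosis of DSL ligands. Its MDA-MB-231 libraries read 2189, 2115, 2213 and 2428 in low glucose and 2114, 2102, 2024 and 2141 in high glucose. These groups overlapped, and the difference of -0.09 (SE 0.04) was not past the threshold. Its MDA-MB-468 libraries read 1939, 2066, 2087 and 2034 in low glucose and 1651, 1869, 1802 and 1671 in high glucose. Every high glucose library was lower, by 0.22 on the log2 scale (SE 0.04), and by 0.12 after the length correction.

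HES1 (ENSG00000114315, chr3:193853937-193856521 on GRCh37, plus strand, 4 exons) encodes a transcriptional repressor and is a widely used readout of Notch activity. The HES1 promoter, shown above, holds 2 matches to the RBPJ core, both on the gene's strand. In MDA-MB-231 it read 220, 180, 179 and 184 in low glucose and 154, 180, 143 and 185.5 in high glucose. The groups overlapped, and the difference of -0.21 (SE 0.10) was not past the threshold. In MDA-MB-468 it read 594, 584, 536 and 594 in low glucose and 641, 617, 640 and 669 in high glucose. All high glucose libraries were higher there, by 0.15 on the log2 scale (SE 0.05). This was lost with DESeq2 and after the length correction (0.11), and also without low glucose replicate 3 (0.12) or high glucose replicate 4 (0.13).

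HEY1 (ENSG00000164683, minus strand of chromosome 8, 5 exons) encodes a related repressor. In MDA-MB-231 it read 32.9, 56.8, 41.35 and 28.8 in low glucose and 34.1, 50.5, 40.9 and 44.7 in high glucose, and the groups overlapped (difference 0.12, SE 0.21). In MDA-MB-468 it read 67.2, 59.7, 70.02 and 57.5 in low glucose and 90.4, 86.3, 105 and 90.2 in high glucose. All 4 high glucose libraries were higher there, with a difference of 0.54 (SE 0.12).

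**Figure D3:**
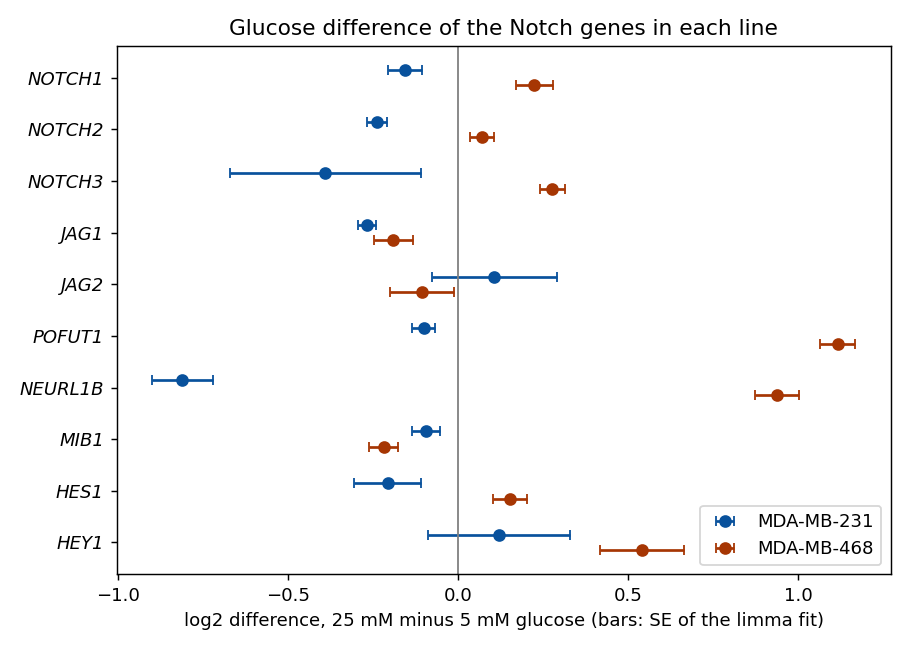
Difference between 25 mM and 5 mM glucose on the log2(value + 1) scale for each of the 10 Notch genes in each line, with bars for the SE of the limma fit (4 replicates per group). JAG1 and MIB1 lie below 0 in both lines, while NEURL1B lies at -0.81 for MDA-MB-231 and 0.94 for MDA-MB-468.

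The glucose difference itself was set between the lines as a contrast over all 16 libraries, MDA-MB-468 minus MDA-MB-231. Of the members, 5 were past the threshold and all 5 were more positive in MDA-MB-468, while 17.0% of 17115 genes were more positive and 13.9% more negative there. The members were picked with earlier results known, so nothing about the pathway is read from this count. NEURL1B had the largest value, 1.75 (SE 0.11), followed by POFUT1 at 1.22 (SE 0.06). NOTCH1 was at 0.38 (SE 0.08), NOTCH2 at 0.31 (SE 0.04) and HES1 at 0.36 (SE 0.12). The values of NOTCH3 (0.67, SE 0.26), HEY1 (0.42, SE 0.25), JAG2 (-0.21, SE 0.22), MIB1 (-0.13, SE 0.06) and JAG1 (0.08, SE 0.06) were not past the threshold. That of NOTCH3 passed it in 7 of 28 alternatives, among them DESeq2 (0.67), a pseudocount of 5 (0.60) and the fits without MDA-MB-231 low glucose replicate 4 (0.84), high glucose replicate 1 (0.75) or high glucose replicate 3 (0.79), and that of MIB1 passed without MDA-MB-231 low glucose replicate 4 (-0.17) and under quantile scaling (-0.18). That of HES1 was lost without MDA-MB-231 low glucose replicate 1 (0.29), high glucose replicate 1 (0.33) or high glucose replicate 3 (0.29), and without MDA-MB-468 low glucose replicate 3 (0.33). JAG1 turned sign under quantile scaling. These contrasts reuse the libraries of the comparisons within each line and add no samples to them.

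Longer transcripts had lower differences in both lines. The Spearman correlation of transcript length with the difference was -0.194 for MDA-MB-231 (14289 genes) and -0.148 for MDA-MB-468 (15079 genes), as a description across genes that share libraries. The members' median length was 6184 nucleotides (1575 to 11425), against 3114 and 2997 over the genes of the 2 lines. What part length had in the members' differences was not tested beyond the corrected values, which are not given here for every member. After the length correction NEURL1B stood at -0.77 for MDA-MB-231 and 0.99 for MDA-MB-468, and POFUT1 at 1.15 for MDA-MB-468. Over all 20 alternatives, the MDA-MB-231 difference ranged from -0.25 to -0.17 for NOTCH2 and from -0.12 to -0.03 for MIB1.

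The rest of the pathway was examined with a list written with earlier results of these data known. The adjusted p of its genes is therefore no independent test. The list held 64 further genes grouped by role, of which 62 had a row (all except DLK1 and HES5). In MDA-MB-231, limma tested 54 of them at a Benjamini-Hochberg adjusted p under 0.05 over all genes, and 1 rose and 7 fell, with a median difference of -0.02, beside 5.71% of all genes that rose and 9.37% that fell. The number of rises was 0 without low glucose replicate 1, 2 or 3 or high glucose replicate 1, 2 or 4, 2 without low glucose replicate 4, and 3 after the length correction. In MDA-MB-468 it tested 59, and 18 rose and 11 fell, with a median of 0.03, beside 24.9% and 22.7% of all genes. The difference between lines passed for 19 of 60, with 15 more positive and 4 more negative in MDA-MB-468, beside 17.0% and 13.9% of all genes. The median of all genes was 0.00 in each of these comparisons.

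**Figure D4:**
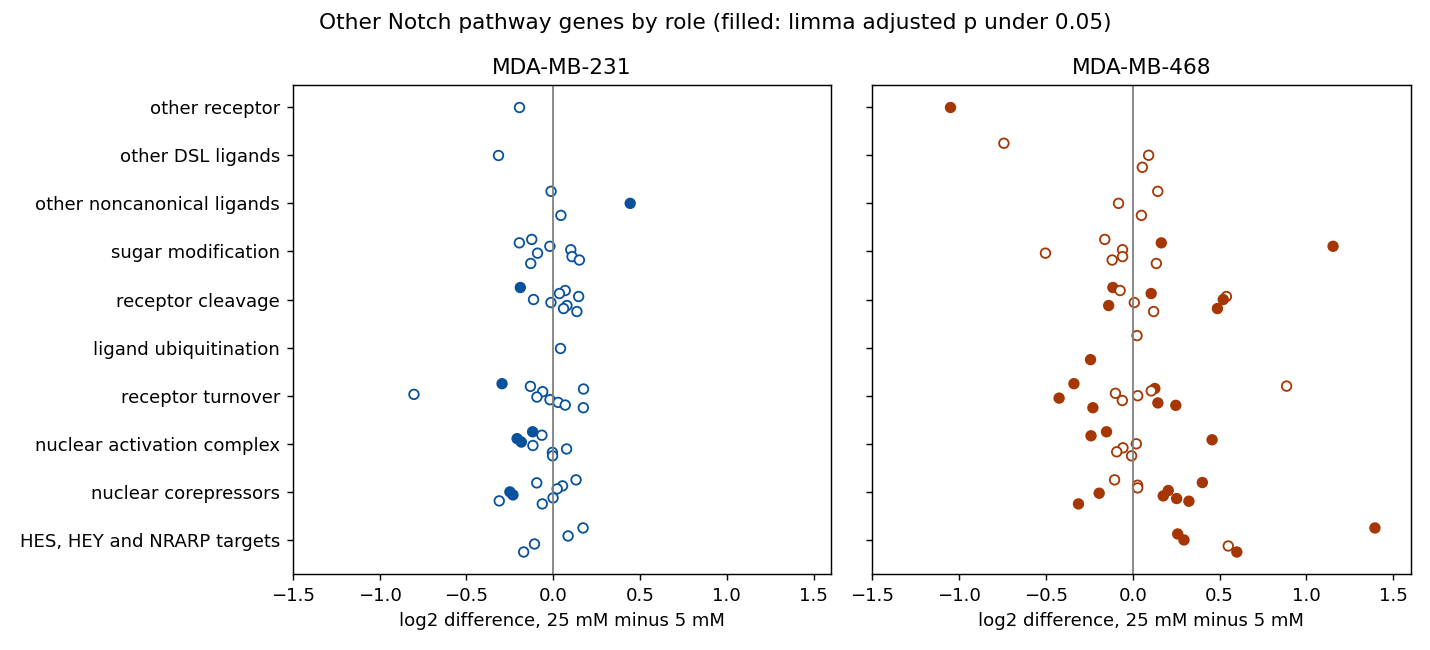
Difference between 25 mM and 5 mM glucose on the log2(value + 1) scale for the other Notch pathway genes that passed the filter, by role, in MDA-MB-231 (54 genes, left) and MDA-MB-468 (59 genes, right). Filled points had a limma adjusted p under 0.05. The group labeled HES, HEY and NRARP targets holds 4 filled points in MDA-MB-468, all above 0, and none in MDA-MB-231.

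Of the other genes listed as HES, HEY and NRARP targets, 4 of the 5 tested in MDA-MB-468 rose and 0 fell. In that line 24.9% of all genes rose and 22.7% fell. Target is the role given in the list, and whether Notch regulates each of these genes here was not tested. HES2 read 35.7 ± 4.37 in low and 95.9 ± 14.8 in high glucose (difference 1.40, SE 0.15, adjusted p = 1.23e-06 by limma), and its 4 high glucose libraries all lay above the low glucose ones. HES6, a modulator of HES1, rose from 370 ± 5.30 to 455 ± 1.76 (0.30, SE 0.05, limma adjusted p = 0.000136), and HES4 rose from 294 ± 20.6 to 352 ± 24.3 (0.26, SE 0.07, limma adjusted p = 0.00558). NRARP, a feedback inhibitor that Notch itself induces, rose from 54.4 ± 13.4 to 82.7 ± 17.3 (0.60, SE 0.18, limma adjusted p = 0.0106), although its groups overlapped. HES7, a gene of the segmentation clock, was at 8.62 ± 2.92 and 12.9 ± 3.40 and did not pass (limma adjusted p = 0.202).

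In MDA-MB-231, 4 of the genes listed as targets were tested and 0 passed. Their limma adjusted p was 0.193 for HES2 (166 ± 12.8 in low and 187 ± 8.88 in high glucose), 0.518 for HES6, 0.738 for NRARP and 0.874 for HES4. The sign of the last 2 differences depended on single libraries, turning for NRARP without low glucose replicate 1 (0.03) and for HES4 without low glucose replicate 4 (-0.06) or high glucose replicate 4 (-0.03). The difference between the lines was past the threshold for HES2 (1.22, SE 0.16, limma adjusted p = 1.90e-05) and HES6 (0.40, SE 0.07, limma adjusted p = 0.000346). It was not for NRARP (limma adjusted p = 0.0964) or HES4 (0.17, SE 0.27, limma adjusted p = 0.676). HEY2 had at most 7 reads in a library, and HEYL had at most 11 in an MDA-MB-231 library, so both were under the filter. No MDA-MB-468 library had a HEYL read, and a count of 0 allows up to 3 reads per library.

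Of the other receptors and DSL ligands, NOTCH4 was near the floor but fell in MDA-MB-468, from 23.5 ± 6.47 to 10.8 ± 3.15 (difference -1.05, SE 0.30, limma adjusted p = 0.00812). The MDA-MB-231 values were 10.6 ± 0.609 and 9.44 ± 2.83 (limma adjusted p = 0.768). DLL3, an atypical ligand, had 0 reads in 7 of the 8 MDA-MB-231 libraries and 1 in the eighth, and read 50.9 ± 11.9 and 53.35 ± 5.17 in MDA-MB-468 (limma adjusted p = 0.701). DLL4 read 41.1 ± 8.62 and 32.5 ± 4.64 in MDA-MB-231 (limma adjusted p = 0.306) and 7.28 and 7.37 in the MDA-MB-468 groups (limma adjusted p = 0.925). DLL1 was under the filter for MDA-MB-231. It did not pass for MDA-MB-468, at 11.3 ± 5.06 and 5.99 ± 1.46 (limma adjusted p = 0.135).

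Among the genes that cleave the receptor, 3 of 9 rose and 2 fell in MDA-MB-468, beside 24.9% and 22.7% of all genes. FURIN, which cuts the receptor precursor, rose from 559 ± 25.0 to 803 ± 40.2 (difference 0.52, SE 0.05, limma adjusted p = 3.41e-07), and PSEN2, a catalytic subunit of gamma-secretase, rose from 141 ± 12.9 to 198 ± 14.4 (0.49, SE 0.09, limma adjusted p = 0.000304). Of the same 9 genes, 1 fell and 0 rose in MDA-MB-231. That gene was ADAM10, the protease of the ligand-dependent cut, which fell from 2826 ± 65.3 to 2478 ± 34.2 (-0.19, SE 0.03, limma adjusted p = 0.000464). ADAM10 was also among the falls of MDA-MB-468 (-0.11, SE 0.04, limma adjusted p = 0.0173). Its difference between lines did not pass (0.07, limma adjusted p = 0.209). The difference between lines passed for FURIN (0.63, limma adjusted p = 5.35e-06) and PSEN2 (0.43, limma adjusted p = 0.00244).

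Among the other genes of sugar modification, 2 of 8 rose and 0 fell in MDA-MB-468, while 0 of 8 passed in MDA-MB-231. The share of all genes that rose was 24.9% in MDA-MB-468 and 5.71% in the other line. GXYLT2 was among the rises. It is a xylosyltransferase that extends the glucose on Notch repeats. It lies under the expression limit for named genes and was picked out after its values were seen. GXYLT2 read 22.1, 35.4, 26.3 and 27.8 in low and 67.1, 71.0, 58.4 and 54.8 in high glucose MDA-MB-468, with no overlap (difference 1.15, SE 0.18). Because of how it was picked, these values are a description only. Of the other 2 ubiquitin ligases of the ligands, NEURL1 fell in MDA-MB-468 from 440 ± 31.0 to 371 ± 9.05 (-0.24, SE 0.06, limma adjusted p = 0.00304), opposite in sign to its relative NEURL1B.

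Among genes of receptor turnover, 3 of 11 rose and 3 fell in MDA-MB-468, beside 24.9% and 22.7% of all genes. FBXW7, the ubiquitin ligase subunit that marks the Notch intracellular part for degradation, fell from 390 ± 29.2 to 290 ± 17.3 (difference -0.42, SE 0.07, limma adjusted p = 7.75e-05), and it differed between lines (-0.33, limma adjusted p = 0.00697). AAK1, an endocytic kinase, fell in both lines. In MDA-MB-231 it fell by 0.29 (SE 0.07, limma adjusted p = 0.0100), and in MDA-MB-468 it fell by 0.34 (SE 0.12, limma adjusted p = 0.0312), but the length correction ended both calls. The second also ended without low glucose replicate 1, 2 or 4 or high glucose replicate 3 (-0.34 to -0.31) and without high glucose replicate 4 (-0.19). In MDA-MB-231 AAK1 was the 1 gene of 10 that passed.

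In the nucleus, the activation complex had 3 falls and 0 rises among 8 genes in MDA-MB-231, and 1 rise and 2 falls among 7 in MDA-MB-468. The corepressors had 2 falls among 9 in MDA-MB-231, and 5 rises and 2 falls among 10 in MDA-MB-468. Of all genes, 5.71% rose and 9.37% fell in the first line, and 24.9% rose and 22.7% fell in the second. RBPJ itself read 6566 ± 343 and 6541 ± 181 in MDA-MB-231 (limma adjusted p = 0.957) and 2136 ± 40.0 and 2014 ± 247 in MDA-MB-468 (limma adjusted p = 0.235). KAT2B, an acetyltransferase, fell in MDA-MB-231 from 736 ± 33.0 to 637 ± 26.7 (-0.21, SE 0.05, limma adjusted p = 0.00854) and rose in MDA-MB-468, where it was low (50.6 to 70.3, difference 0.46, SE 0.14, limma adjusted p = 0.0148). Its difference between the lines was 0.66 (limma adjusted p = 0.000567).

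SPEN, a corepressor that binds RBPJ, fell in both lines. The MDA-MB-231 means were 2255 ± 111 and 1919 ± 47.1 (-0.23, SE 0.04, limma adjusted p = 0.000505), and those of MDA-MB-468 were 1784 and 1561 (-0.19, SE 0.05, limma adjusted p = 0.00205). In the latter line the corepressor CTBP1 rose from 988 ± 43.3 to 1304 ± 25.2 (0.40, SE 0.04, limma adjusted p = 5.38e-07), TLE4 of the Groucho family fell from 1060 ± 50.3 to 853 ± 6.74 (-0.31, SE 0.04, limma adjusted p = 1.41e-05), and the acetyltransferase EP300 fell from 3113 ± 56.5 to 2639 ± 194 (-0.24, SE 0.04, limma adjusted p = 0.000208). TLE4 was alone in its family in falling. TLE1, TLE2 and TLE3 rose in MDA-MB-468, by 0.18, 0.25 and 0.32 (limma adjusted p = 0.00392, 0.00178 and 2.92e-07). The 1 gene of the list that rose in MDA-MB-231 was DNER, a noncanonical ligand, from 92.4 ± 18.5 to 126 ± 22.1 (0.44, SE 0.14, limma adjusted p = 0.0456), a call lost in 9 of 20 alternatives. Of these, 6 left out a single library (low glucose replicate 1, 2 or 3 or high glucose replicate 1, 2 or 4), with differences from 0.33 to 0.48.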

How the data were processed

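Per the methods of the study, reads were trimmed with Trimmomatic and aligned with TopHat to hg19 with an Ensembl annotation, while the submitters' processing notes list hg38 and edgeR, so the build behind the counts is unsettled. The counting program and its use of strand are not given in the sources used here. The authors deposited a normalized signal per gene, reads divided by a size factor per library. In each of the 16 libraries 100% of values were whole multiples of 1 step (tolerance 0.001 reads), so whole reads were recovered. No column was left without a sample (0 unmatched).

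Of 18332 Ensembl IDs, 16633 had a symbol and 17418 a transcript length in a GENCODE annotation lifted to GRCh37. Members and lists were chosen with earlier results of these data known. Genes reaching 0.5 CPM in 2 samples entered limma 3.58.1 under R 4.3.3 (lmFit, eBayes with trend, two-sided) on log2(value + 1), a scale that understates changes of low genes, in 8 samples per line, or in all 16 for contrasts between lines. Benjamini-Hochberg adjusted p under 0.05 counted as past the threshold. The study's methods name DESeq2. Replicate libraries differed by 2.02 to 5.20 times counting error (chi-square per gene), so none was a copy. The labels do not say whether replicates were separate cultures, so the spread may be technical. The floor of 3 reads covers counting error only. No batch was named in the labels.

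Beyond the 10 members, the genes named by rule were NOTCH4, DLL1, DLL3, DLL4, the other HES, HEY and NRARP targets, and, from the pathway list, the 5 rises and 5 falls of greatest size past the threshold in a line whose higher group averaged 5 CPM or more. From the list, RBPJ, GXYLT2, TLE1, TLE2 and TLE3 were also named, outside this rule. One gene that this rule names is not reported here, although list counts include it. Genes most like NOTCH1, JAG1 and HES1 were the 3 with the highest Pearson r. Alternatives were pseudocounts of 0.5 and 5, filters, TMM, median-of-ratios and quantile scaling, a replicate block, a loess correction for length, leaving out each replicate, and edgeR 4.0.16 and DESeq2 1.42.0 on recovered reads. Steps were tested on simulated data.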

Additional observations from a re-analysis of the deposited data

Results flagged for a closer look

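Dixon's test was read in 129 groups of 4 libraries, over the members and the genes named by the rule above. In 6 of them the highest or lowest library lay apart from the others by more than the 95% critical value. Chance gives this in about 1 in 20 groups. The 6 groups were NOTCH2 in low glucose MDA-MB-231 (6321 in the lowest library), HES1 in low glucose MDA-MB-231 (220 in the highest), HES1 in low glucose MDA-MB-468 (536 in the lowest), TLE4 in low glucose MDA-MB-468 (985 in the lowest), DLL3 in high glucose MDA-MB-231 (0.951 in the only library with a read) and DLL4 in low glucose MDA-MB-468 (12.2 in the highest). With every other library of its group at 0, the DLL3 value was bound to be flagged whatever its size, so nothing is read from it. The glucose difference differed between the lines, MDA-MB-468 minus MDA-MB-231 on the log2 scale, for 12 of the members and the genes named by that rule. Of the members these were NEURL1B (1.75), POFUT1 (1.22), NOTCH1 (0.38), HES1 (0.36) and NOTCH2 (0.31), which were chosen with earlier results known. Of the pathway genes named by the rule these were HES2 (1.22), KAT2B (0.66), FURIN (0.63), CTBP1 (0.50), PSEN2 (0.43), HES6 (0.40) and FBXW7 (-0.33).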

How the results depend on the processing

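No total count of genes past the threshold moved by over 1.5 times in any alternative. By direction, rises over all genes in MDA-MB-231 went from 850 to 564 without high glucose replicate 1, rises in the pathway list there from 1 to between 0 and 3, and falls in the list in MDA-MB-468 from 11 to 7 under the length correction with the block. Over all genes the total ranged from 1624 to 2389 in MDA-MB-231 (2245 in the values above) and from 6632 to 7521 in MDA-MB-468 (7495), and in the pathway list from 6 to 9 (8) and from 24 to 29 (29). Quantile scaling moved the split in MDA-MB-231 from 850 higher and 1395 lower to 1027 and 1114, in MDA-MB-468 from 3925 and 3570 to 3646 and 3801, and in the difference between lines from 2909 and 2379 to 2680 and 2779, so the larger direction turned in the last 2. Members past the threshold kept their call in 66 of 80 alternatives in MDA-MB-231 (all 14 losses were NOTCH1) and in 154 of 160 in MDA-MB-468 (HES1 lost 5 and JAG1 1). Same-numbered replicates did not deviate together (mean correlation -0.0291 for MDA-MB-231 and 0.0260 for MDA-MB-468). With the replicate number as a block, 1624 and 7383 genes passed in the lines, 6 and 28 of them in the pathway list. The difference between lines for NOTCH3, which had not passed in the values above, passed with the block (0.67) and with the block and the length correction together (0.70), and in 5 other settings, while the block ended the calls of NOTCH1 and DNER in MDA-MB-231. The direction turned for MIB1 between lines (0.0119 under quantile scaling, 0.12 after the length correction with or without the block) and for JAG1 in the difference of the glucose effect between lines (-0.0022 under quantile scaling). Leaving out 1 replicate also turned signs of values that had not passed, which ranged in MDA-MB-231 from -0.0325 to 0.2298 for JAG2, from -0.016 to 0.3024 for HEY1, from -0.3461 to 0.0302 for NRARP and from -0.0621 to 0.2878 for HES4. In MDA-MB-468 the ranges were -0.0666 to 0.1946 for DLL3 and -0.0561 to 0.3021 for DLL4. The cause was not tested. Genes near the floor (NOTCH3 in MDA-MB-231, NOTCH4, DLL1, DLL4 and HES7) had SEs of 0.28 or more in at least 1 line, which limits what could be detected.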

Other observations

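The genes whose pattern was most like NOTCH1 over the 16 libraries, after subtracting each line's mean of log2(value + 1), were RBM14 (Pearson r = 0.934), PTPRF (0.930) and ALDH16A1 (0.926) among 12430 genes. For JAG1 they were PDE1C (0.937), THBS1 (0.936) and TINAGL1 (0.923), and for HES1 they were MLF2 (0.828), SART1 (0.825) and ENOSF1 (0.797). These values describe libraries that share their size factors and are given without a p-value. HES1 had the lowest leading value of the 3.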
